A study of Mus musculus with 16 samples.

Results

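The comparison described here sets the caudal part of mouse embryos that lack both Fuz and Gpr161 against the same part of wild-type embryos at stage E10.5. It rests on 4 of the 16 RNA sequencing libraries of the series, namely the 2 libraries titled as Tail of the Fuz:Gpr161 double knockout (DKO) and the 2 of the Tail of wild type (WT), and they were chosen by those titles. Tail stands for the body below the forelimbs, and the matching Head part was taken above the third branchial arches. The other groups used are Tail Fuz KO, Tail Gpr161 KO, Head WT and Head DKO, each with 2 libraries. No treatment is given for any group, and the labels name neither the alleles, the strain nor the number of embryos behind a library. The labels do not say whether both libraries of a group are from different embryos. Those of Gpr161 KO differ in sex, and so in embryo, in both Head and Tail. Library 2 expressed Xist, the RNA of the inactive X chromosome, and library 1 had almost none. The libraries of every other group are alike in Xist, which leaves their origin open. Each p-value rests on the spread of these samples, which may be technical in those other groups. Of 21284 genes with enough counts to be tested, the 20555 on autosomes are reported.

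Hedgehog ligands such as Sonic hedgehog (Shh), secreted by notochord, floor plate and limb, bind the receptor Ptch1 and so release Smo, which moves into the primary cilium and turns Gli factors from repressors into activators. Gpr161 is a receptor in the cilium that raises cAMP and thereby favours the repressor form, so its loss is known to raise Hedgehog output. Fuz works in the planar cell polarity pathway and in the assembly of cilia, and without a cilium neither the activator nor the repressor form of the Gli factors is made efficiently. Mutants that lack both therefore ask which of the opposed effects is seen when the cilium and its brake are removed together. In the caudal embryo, Hedgehog signalling patterns the ventral neural tube, the sclerotome of the somites, the gut mesenchyme and the hindlimb.

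Total counts of the 4 libraries ran from 42206845 to 53680317. Expression is given as CPM, counts scaled to a library total of 1e+06 after TMM adjustment of the totals, one value per library, in the order library 1 and library 2. The pathway genes removed by design were low where the labels put them: Gpr161 measured 46.8 and 51.5 CPM in Tail WT and 2.12 and 3.29 CPM in Tail DKO, and Fuz 5.17 and 5.35 CPM in Tail WT and 0.808 and 1.53 CPM in Tail DKO. The WT libraries did not overlap the DKO libraries for either gene. Caudal body markers, a list of 10 genes such as Hoxc10, Pitx1 and Tbx4, summed to 378 to 498 CPM in Tail WT and 324 to 413 CPM in Tail DKO, while 10 head markers summed to between 4.07 and 5.92 CPM over the 4 libraries. Xist, the RNA of the inactive X chromosome, was at 918 and 977 CPM in Tail WT and at most 1.22 CPM in Tail DKO, so that sex and genotype cannot be told apart in this comparison. Library Tail DKO 1 stood apart from Tail DKO 2 by its hypoxia and glycolysis genes, and Tail WT 1 from Tail WT 2 by its neuronal genes. Both differences are given with their values where those genes are described.

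The double knockout differed from wild type at few single genes by the stricter of 2 tests. With edgeR's quasi-likelihood test, a gene was called at a Benjamini-Hochberg adjusted p under 0.05. It called 9 autosomal genes, 0.0438% of those tested, of which 2 were higher (0.00973%) and 7 lower (0.0341%) in Tail DKO. At an unadjusted p under 0.05 there were 1466 genes (7.13%), 516 of them higher (2.51%) and 950 lower (4.62%). DESeq2 called 34 genes higher (0.165%) and 101 lower (0.491%), 0.657% in all, among them all 9 of edgeR. The groups of 2 did not overlap for 4343 genes that were higher (21.1%) and 4338 that were lower (21.1%) in Tail DKO, and the median log2 fold change over all genes was 0.0046. On simulated counts with changes of known size, the same test recovered 42% of genes changed by 1 on the log2 scale and 82% of those changed by 2. The changed genes were drawn from those with higher counts, and libraries varied independently gene by gene. These shares thus do not cover low counts or differences between replicates that many genes share. In tissue of many cell types, fewer cells of a type and less RNA per cell cannot be told apart.

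Gpr161 itself fell in Tail DKO, with a log2 fold change of -4.18 (SE 0.39, edgeR adjusted p = 0.000604). Celsr1, which was also called, encodes a core cadherin of planar cell polarity that organises polarised epithelia and is needed for closure of the neural tube. Its level was 64.55 and 82.7 CPM in Tail WT and 42.5 and 32.1 CPM in Tail DKO, a log2 fold change of -0.98 (SE 0.15, adjusted p = 0.0418). Neither single mutant shared this low level. The 6 Tail libraries other than DKO ran from 64.55 to 85.1 CPM, and both DKO libraries lay below all of them. Celsr1 was also lower in Tail DKO than in Tail Fuz KO, by a log2 difference of -1.01 (SE 0.15, adjusted p = 0.0407), and than in Tail Gpr161 KO, by -1.16 (SE 0.15, adjusted p = 0.00445). These comparisons share the DKO libraries. The difference from Tail Fuz KO was called in 1 of 4 fits with a library left out, with an adjusted p of 0.416 without Fuz KO 1, 0.0509 without Fuz KO 2 and 0.727 without DKO 2, and it had an adjusted p of 0.0914 with sex as a term. That from Tail Gpr161 KO was called in 3 of 4 fits, with an adjusted p of 0.0663 without DKO 2. Leaving out Tail DKO 2 gave Celsr1 a log2 fold change of -0.79 against WT with an adjusted p of 0.503, leaving out Tail WT 2 one of 0.55, and leaving out Tail WT 1 one of 0.0554. A fit of the compared groups alone gave Celsr1 an adjusted p of 0.13 against WT and did not call it against Tail Fuz KO. A filter of 5 CPM gave 0.0593 against WT and 0.0581 against Tail Fuz KO. Both of these fits called it against Tail Gpr161 KO, with adjusted p of 0.0116 and 0.00822. With sex as a term, Celsr1 had a log2 fold change of -0.96 against WT with an adjusted p of 0.599. Only the Gpr161 KO groups hold libraries that differ in Xist. They alone set that term, which therefore cannot tell sex from genotype in DKO against WT.

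A further 6 called genes are pseudogenes, gene models or a gene with near copies, so that reads may be shared with their parent genes and the values are uncertain. Rpl34-ps1 on chromosome 6, a copy of a ribosomal protein gene, measured 43.7 and 37.5 CPM in Tail WT and 2.17 and 2.74 CPM in Tail DKO. It was as low in Tail Gpr161 KO, at 1.61 and 1.19 CPM. Atp6v0c-ps2, also on chromosome 6, measured 9.81 and 9.54 CPM in Tail WT and 0.208 and 0.333 CPM in Tail DKO. Both single mutants had it at 8.78 CPM or more, so that the DKO libraries alone were low. Ftl1-ps1 on chromosome 13, a copy of ferritin light chain, rose from 1.53 and 1.21 CPM to 6.58 and 5.70 CPM, and stood at 5.52 and 5.65 CPM in Tail Fuz KO.

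Gm9825, Gm11942 and H2-Bl lie outside the rule for naming and were chosen after their values were seen. Gm9825 on chromosome 6 stood at 20.9 and 21.3 CPM in Tail WT and 0.854 and 0.979 CPM in Tail DKO, and Gm11942 on chromosome 4 at 0.527 and 0.457 CPM in Tail WT and 12.4 and 11.5 CPM in Tail DKO. H2-Bl, a class I gene of the major histocompatibility complex on chromosome 17, stood at 2.63 and 2.58 CPM in Tail WT and 0.462 and 0.333 CPM in Tail DKO. Low Gm9825 and H2-Bl were seen in both Head DKO libraries too, and high Gm11942 in both Fuz KO groups. With each of the 4 libraries left out in turn, Gpr161, Rpl34-ps1, Atp6v0c-ps2, Gm9825 and Gm11942 were called in 4 of 4 fits, and Ftl1-ps1 and H2-Bl in 0 of 4. The adjusted p of Ftl1-ps1 then ran from 0.202 to 0.55 and that of H2-Bl from 0.171 to 0.503.

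**Figure D1:**
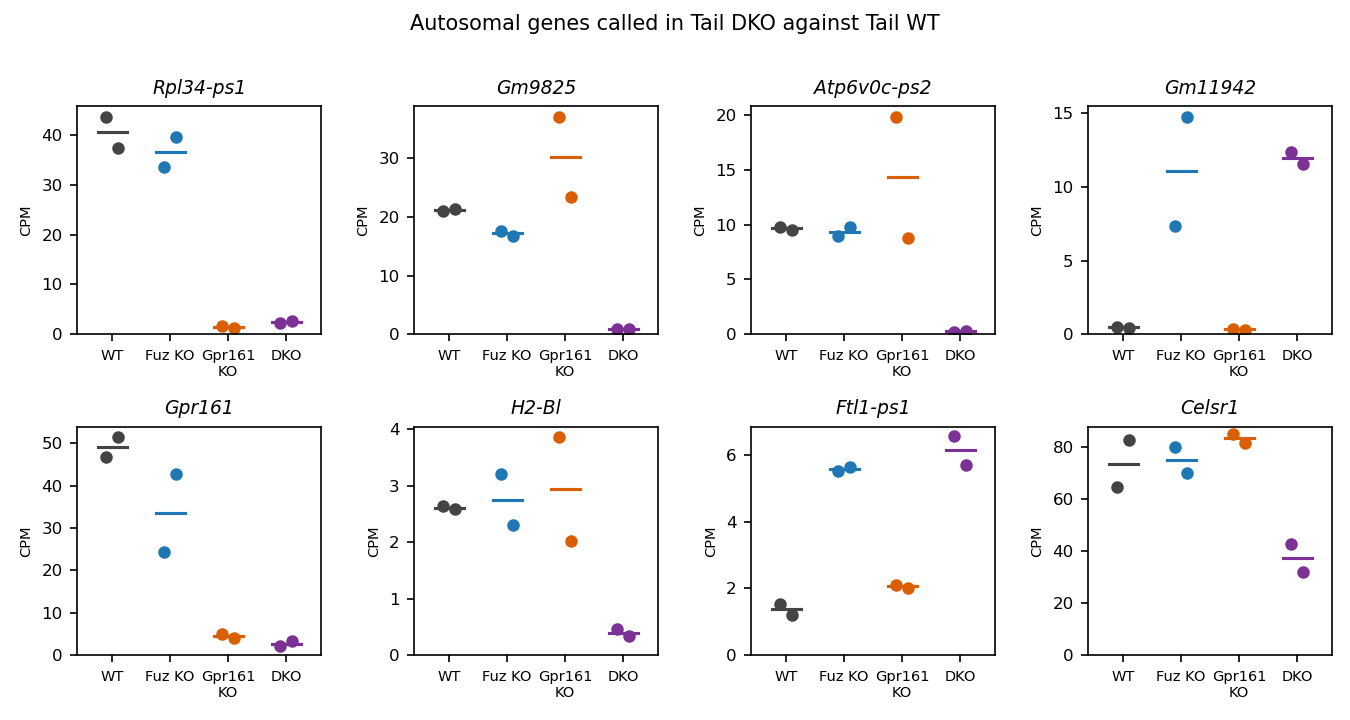
CPM (vertical axes, from 0) of 8 autosomal genes called in Tail DKO against Tail WT, for the 2 libraries of each Tail genotype (points) with their mean (line). Celsr1 was low in the DKO libraries alone, at 42.5 and 32.1 CPM, whereas Rpl34-ps1 was low in the Gpr161 KO libraries too.

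Fuz did not pass edgeR's threshold against WT. Its log2 fold change was -2.16 (SE 0.39, adjusted p = 0.13), while DESeq2 gave an adjusted p of 1.06e-05, and against Tail Gpr161 KO, where Fuz is intact, it was called at -2.36 (SE 0.39, adjusted p = 0.0218). Of 10 tested genes on either side of Fuz on chromosome 7, chosen by position, Bcl2l12 and Med25 were among those that lay lower with it. Bcl2l12, a member of the Bcl2 family, measured 15.3 and 16.3 CPM in Tail WT and 8.57 and 8.42 CPM in Tail DKO. Med25, a Mediator subunit, measured 117 and 115 CPM in Tail WT and 85.6 and 74.9 CPM in Tail DKO. Neither gene's groups overlapped. The log2 fold changes were -0.90 (SE 0.16, adjusted p = 0.13) and -0.53 (SE 0.10, adjusted p = 0.179), short of the threshold. DESeq2 called both, and both were lower against Tail Gpr161 KO, Bcl2l12 by -0.90 (adjusted p = 0.0287) and Med25 by -0.59 (adjusted p = 0.0218). Ap2a1, the next gene beyond Fuz, was also lower against Tail Gpr161 KO, by -0.55 (SE 0.10, adjusted p = 0.0316), and stood at -0.33 against WT (adjusted p = 0.456). Ap2a1, Scaf1 at -0.27 (SE 0.10) and Ptov1 at -0.26 (SE 0.13) also lay below WT without overlap, as did D7Bwg0826e near the floor. Gm15545 lay above WT without overlap, at 0.26 (SE 0.25). Of all genes, 21.1% were lower and 21.1% higher without overlap, so a lack of overlap alone is common. Against Tail Fuz KO, whose libraries carry the same loss, Bcl2l12 differed by 0.0012 (SE 0.16) and Med25 by -0.14 (SE 0.10). Among 10 tested genes on either side of Gpr161 on chromosome 1, none was called against WT or against either single mutant.

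**Figure D2:**
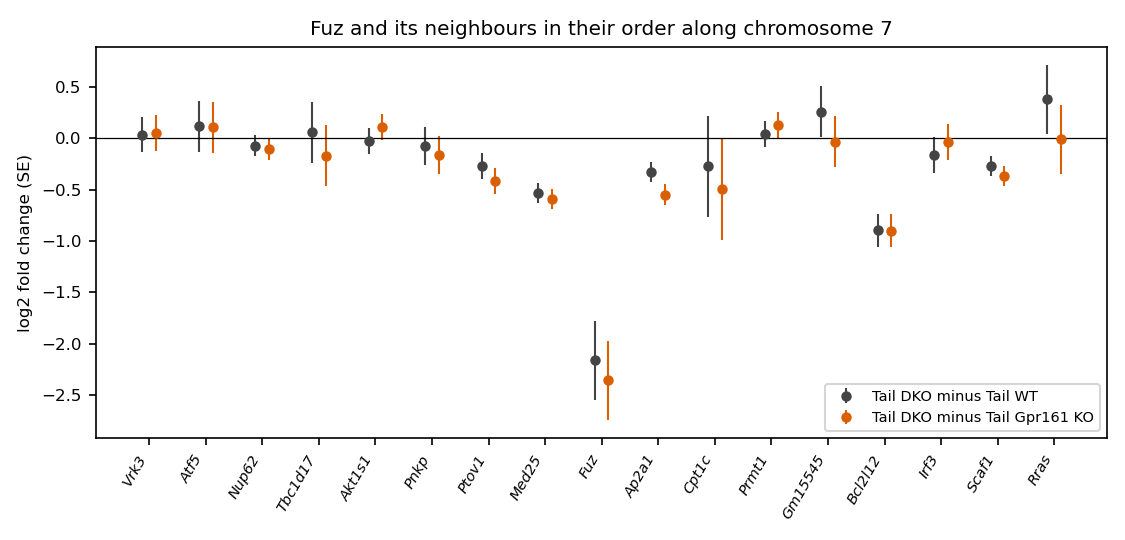
Log2 fold change with its standard error for Fuz and those of its neighbours on chromosome 7 with at least 5 CPM in Tail WT, in the order of their position, for Tail DKO minus Tail WT (grey) and Tail DKO minus Tail Gpr161 KO (orange). Fuz stands lowest at -2.16 against WT, followed by Bcl2l12 at -0.90 and Med25 at -0.53.

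Hedgehog target genes stood near the wild-type level in Tail DKO. Of 16 targets, 0 were called by edgeR or DESeq2, and their median log2 fold change was 0.018. At an unadjusted p under 0.05, 1 was higher and 0 lower, against 2.51% and 4.62% of all genes. Without overlap 4 were higher and 4 lower, against 21.1% of all genes each way. Gli1, the target most often used as a readout of the pathway, measured 38.2 and 45.9 CPM in Tail WT and 40.0 and 35.4 CPM in Tail DKO. The groups overlapped, with a log2 fold change of -0.16 (SE 0.18, adjusted p = 0.901). Ptch1, receptor and feedback inhibitor, measured 138 and 153 CPM in Tail WT and 184 and 136 CPM in Tail DKO, which also overlapped at 0.14 (SE 0.26, adjusted p = 0.95). Foxf1 stood at -0.24 (SE 0.48), Foxf2 at -0.44 (SE 0.33) and Foxl1 at -0.33 (SE 0.38). None of these 3 passed the test. They are targets in the mesenchyme of the gut. Hhip, a secreted-ligand trap, was the target with the largest difference, at 14.9 and 15.0 CPM in Tail WT and 28.7 and 24.7 CPM in Tail DKO. The groups did not overlap, and the log2 fold change of 0.84 (SE 0.33) had an adjusted p of 0.621.

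Several of the targets were lower in Tail DKO than in Tail Gpr161 KO. In Tail Gpr161 KO, Gli1 stood at 114 and 130 CPM and Ptch1 at 545 and 532 CPM, above every other Tail library. Tail DKO was lower than Tail Gpr161 KO for Gli1, at a log2 difference of -1.69 (SE 0.19, adjusted p = 0.00127) and for Ptch1 by -1.75 (SE 0.26, adjusted p = 0.0146). In all, 7 of 16 targets were called lower in this comparison, against 0.384% of all genes lower and 0.146% higher, and DESeq2 called these 7 as well. Besides Gli1 and Ptch1 they included Foxf2 (-2.46, adjusted p = 0.0076), Foxl1 (-2.33, adjusted p = 0.0218) and Hsd11b2 (-1.47, adjusted p = 0.0159). Gli1 was called in 4 of 4 fits with 1 of these 4 libraries left out. Foxf2 and Foxl1 were each called in 1 of 4, and Ptch1 and Hsd11b2 in 0 of 4, with adjusted p-values for these last genes of up to 0.221. Against Tail Fuz KO 0 of 16 targets were called, at a median log2 difference of 0.49. Gli1 stood at 28.3 and 20.0 CPM in Tail Fuz KO, below both DKO libraries, with a difference of 0.64 (SE 0.18) that did not pass. The comparisons with WT and with each mutant share the DKO libraries.

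Ligands, receptors and transducers of the pathway stood slightly lower. Of 34 genes, 12 were lower at an unadjusted p under 0.05 and 0 higher, against 4.62% and 2.51% of all genes. Without overlap between the groups 20 were lower and 4 higher, against 21.1% of all genes each way. The median log2 fold change of the list was -0.26. Of the 34, only Gpr161 passed edgeR's adjusted threshold. Shh measured 13.5 and 19.3 CPM in Tail WT and 5.63 and 7.99 CPM in Tail DKO. No DKO library reached the WT range, the log2 fold change was -1.27 (SE 0.32, adjusted p = 0.353), and DESeq2 called it (adjusted p = 0.0165). Tail Fuz KO had Shh at 7.14 and 8.59 CPM, near the DKO level, and Tail Gpr161 KO at 34.0 and 37.2 CPM, from which DKO differed by -2.38 (SE 0.33, adjusted p = 0.0076). The coreceptors Cdon, Boc and Gas1, which Hedgehog signalling is known to lower, stood at log2 fold changes of -0.50 (SE 0.17), -0.47 (SE 0.22) and -0.29 (SE 0.16), none past the threshold. Gas1 was higher in Tail DKO than in Tail Gpr161 KO by 0.94 (SE 0.16, adjusted p = 0.0259), a call made in 0 of 4 fits with a library left out.

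Among the transducers, Prkaca, the catalytic subunit of protein kinase A through which Gpr161 acts, measured 96.7 and 95.8 CPM in Tail WT and 73.6 and 63.4 CPM in Tail DKO. DESeq2 called it (adjusted p = 0.0322) and edgeR did not, at -0.49 (SE 0.12, adjusted p = 0.325). Gli3, the main repressor, stood at 157 and 133 CPM in Tail WT and 109 and 115 CPM in Tail DKO, -0.37 (SE 0.15, adjusted p = 0.633). Gli2 at -0.22 (SE 0.14) and Smo at -0.15 (SE 0.13) were closer to WT, and neither passed the test.

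**Figure D3:**
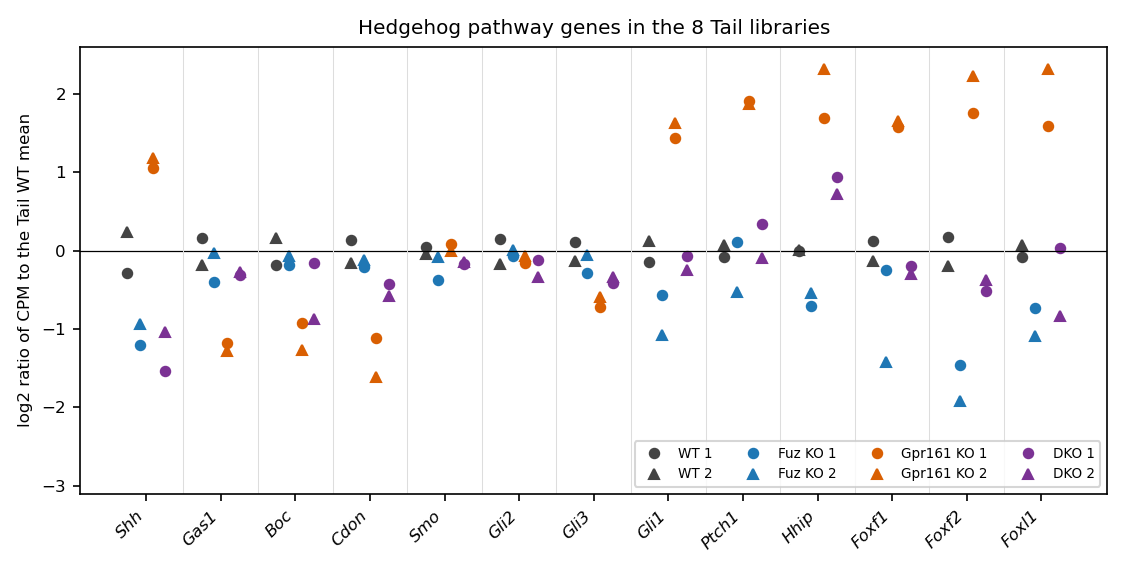
Log2 ratio of each Tail library's CPM to the mean of the 2 Tail WT libraries, for 13 Hedgehog pathway genes, with circles for library 1 and triangles for library 2 of each genotype. The DKO libraries lie near the WT libraries for Gli1 and Ptch1, where the Gpr161 KO libraries lie above, and below them for Shh.

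In the ventral neural tube, no member of the list of 27 genes tested was called by edgeR, and DESeq2 called Shh and Foxa2 lower. The list had 6 members lower at an unadjusted p under 0.05 and 0 higher, against 4.62% and 2.51% of all genes. Its median log2 fold change was -0.60. By library, the list's median difference from the Tail WT mean was -0.73 and 0.73 in Tail WT and 0.10 and -0.55 in Tail DKO. Both DKO libraries thus lay within the WT range. Foxa2, the transcription factor that specifies floor plate and is also made in notochord and endoderm, measured 2.97 and 5.67 CPM in Tail WT and 0.924 and 1.21 CPM in Tail DKO. The DKO libraries lay below WT, with a log2 fold change of -2.01 (SE 0.39, adjusted p = 0.189, DESeq2 adjusted p = 0.000157). Tail Fuz KO was near DKO at 1.24 and 1.01 CPM, whereas Tail Gpr161 KO had 33.6 and 31.6 CPM, a difference of -4.92 for DKO (SE 0.42, adjusted p = 0.000106, called in 4 of 4 fits with a library left out). Ferd3l, another floor plate gene, was also lower than in Tail Gpr161 KO, by -4.55 (SE 0.57, adjusted p = 0.00394).

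For 3 progenitor genes of the ventral tube, the WT libraries differed from each other. Olig2, which marks motor neuron progenitors, measured 2.01 and 18.6 CPM in Tail WT and 14.6 and 5.46 CPM in Tail DKO. Nkx6-1 measured 4.45 and 19.5 CPM in Tail WT and 13.6 and 4.01 CPM in Tail DKO, and Nkx2-2 0.144 and 2.42 CPM in Tail WT and 0.277 and 0.0979 CPM in Tail DKO. All 3 overlapped between the groups, and their log2 fold changes of -0.04 (SE 0.85), -0.45 (SE 0.73) and -2.79 (SE 1.02) turned positive without Tail WT 2, at 2.32, 0.99 and 0.35. Nkx2-9, chosen after its values were seen, had 1.29 and 1.62 CPM in Tail WT and 0.323 and 0.313 CPM in Tail DKO, without overlap, -2.19 (SE 1.04, adjusted p = 0.704). En1, a gene of ventral interneurons, limb ectoderm and somite, had 15.6 and 8.35 CPM in Tail WT and 3.56 and 5.91 CPM in Tail DKO, -1.34 (SE 0.68, adjusted p = 0.734).

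Intermediate genes of the neural tube were at the WT level or below, with 0 of 14 called and a median log2 fold change of -0.43. By library, the list's median difference from the Tail WT mean was -0.44 and 0.44 in Tail WT and -0.07 and -0.57 in Tail DKO. DKO 1 thus lay within the WT range and DKO 2 below it. Pax6 measured 18.1 and 43.9 CPM in Tail WT and 46.5 and 32.9 CPM in Tail DKO. The groups overlapped. Against Tail Gpr161 KO the intermediate genes rose in Tail DKO, with a median log2 difference of 2.57. Of the 14, 5 were called higher and 1 lower, against 0.146% and 0.384% of all genes. Pax6 differed by 3.22 (SE 0.40, adjusted p = 0.00605). Dbx1 and Dbx2, which mark progenitors at the middle of the tube, were called (adjusted p = 0.048 and 0.0218) with at most 0.0948 CPM in Tail Gpr161 KO, and no fold is given at that level. Leaving out 1 library kept the call of Pax6 in 1 of 4 fits and those of Dbx1 and Dbx2 in 0 of 4. Evx1, of ventral interneurons and tail bud, was the 1 lower, by -2.31 (adjusted p = 0.0333).

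Dorsal neural tube and roof plate genes had one of the lowest medians of the 25 pathway lists, -0.80. Of 28 genes, 11 were lower at an unadjusted p under 0.05 and 1 higher, against 4.62% and 2.51% of all genes. Without overlap 21 were lower, against 21.1% of all genes. But 0 of the 28 were called by edgeR and 2 by DESeq2, Zic2 and Atoh1. Pax3, made in dorsal neural tube and somite, measured 55.5 and 54.7 CPM in Tail WT and 39.7 and 34.0 CPM in Tail DKO. Both DKO libraries lay below both WT libraries, at a log2 fold change of -0.58 (SE 0.15, adjusted p = 0.367). Pax7 measured 8.02 and 11.4 CPM in Tail WT and 7.30 and 3.99 CPM in Tail DKO, -0.78 (SE 0.33, adjusted p = 0.642). Zic2, needed for closure of the neural tube, measured 36.7 and 34.8 CPM in Tail WT and 21.5 and 15.2 CPM in Tail DKO, -0.96 (SE 0.23, adjusted p = 0.304, DESeq2 adjusted p = 0.0186). Lhx9, of dorsal interneurons and limb, had the largest difference among members of at least 5 CPM in a group, with 50.8 and 43.7 CPM in Tail WT, 13.3 and 21.4 CPM in Tail DKO and a log2 fold change of -1.44 (SE 1.09, adjusted p = 0.829).

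Several dorsal genes were low in Tail Gpr161 KO and higher in Tail DKO. Pax7 stood at 0.0948 and 0.0516 CPM in Tail Gpr161 KO and Pax3 at 7.87 and 8.24 CPM. Tail DKO was higher for Pax7 (adjusted p = 5.47e-05, with no fold given at that level) and by 2.19 for Pax3 (SE 0.16, adjusted p = 5.35e-05), and both were called in 4 of 4 fits with a library left out. Msx3, of dorsal progenitors, was higher by 4.20 (SE 0.46, adjusted p = 0.00127, 4 of 4). Atoh1, of the dorsalmost progenitors, was listed at 0 in both Gpr161 KO libraries and at 0.716 and 0.666 CPM in Tail DKO, a call (adjusted p = 0.0227) made in 0 of 4 fits. In all 4 of 28 dorsal genes were called higher than in Tail Gpr161 KO and 0 lower, against 0.146% and 0.384% of all genes.

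Neural crest, ganglion and pigment cell genes had 0 of 23 called against WT and a median of -0.40. Hand1, of sympathetic precursors and lateral mesoderm, stood at 46.8 and 35.5 CPM in Tail WT and 78.8 and 77.2 CPM in Tail DKO (log2 fold change 0.92, SE 0.50, adjusted p = 0.75). Sox10, the defining factor of migrating crest and glia, measured 19.4 and 24.2 CPM in Tail WT and 19.3 and 13.4 CPM in Tail DKO, and 2.37 and 1.498 CPM in Tail Gpr161 KO, from which DKO differed by 3.07 (SE 0.33, adjusted p = 0.00127, called in 4 of 4 fits with a library left out). Neuronal differentiation genes, 26 in number, had 0 called and 0 at an unadjusted p under 0.05. Tail WT 1 stood 1.00 below and Tail WT 2 1.00 above their mean for the median gene of that list, and DKO 1 and DKO 2 stood between, at -0.01 and -0.51. Cntn2, an axonal adhesion molecule, measured 13.9 and 39.9 CPM in Tail WT and 14.9 and 9.20 CPM in Tail DKO, -1.16 (SE 0.80, adjusted p = 0.816).

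Genes of the tail bud, presomitic mesoderm and segmentation clock stood lower in Tail DKO, with a median of -0.62, yet 0 called by edgeR. At an unadjusted p under 0.05, 7 of 28 were lower and 0 higher, against 4.62% and 2.51% of all genes. Without overlap 16 were lower, against 21.1% of all genes. Fgf8, the ligand that keeps the tail bud undifferentiated and is also made in limb ectoderm, measured 22.9 and 15.3 CPM in Tail WT and 8.41 and 8.09 CPM in Tail DKO. The log2 fold change was -1.21 (SE 0.31, adjusted p = 0.367), and DESeq2 called it (adjusted p = 0.0243). T, the mesoderm and notochord factor brachyury, measured 20.8 and 36.1 CPM in Tail WT and 16.5 and 14.7 CPM in Tail DKO, -0.87 (SE 0.50, adjusted p = 0.776). Tbx6, of presomitic mesoderm, stood at 4.88 and 8.37 CPM in Tail WT and 4.92 and 3.27 CPM in Tail DKO, which overlapped. Hoxc13 stood at 10.53 and 12.6 CPM in Tail WT and 5.17 and 4.54 CPM in Tail DKO, -1.25 (SE 0.84, adjusted p = 0.81). Wnt5a, a ligand of the polarity pathway in the tail bud, was lower than in Tail Gpr161 KO by -1.05 (SE 0.16, adjusted p = 0.0146), and Wnt5b by -0.92 (SE 0.15, adjusted p = 0.0218), each called in 0 of 4 fits with a library left out.

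Posterior Hox genes, which give the hind body its regional identity, stood lower as a group in both DKO libraries. Of 18 genes, 12 were lower without overlap and 1 higher, against 21.1% of all genes each way. The median was -0.34, and the DKO libraries' own medians were -0.39 and -0.35 against 0.04 and -0.04 for the WT libraries. DESeq2 called Hoxc12 and Hoxc11, and edgeR called 0. Hoxc12 measured 7.54 and 7.43 CPM in Tail WT and 2.54 and 2.04 CPM in Tail DKO, -1.71 (SE 0.48, adjusted p = 0.386, DESeq2 adjusted p = 0.00307). Hoxc11, chosen after its values were seen, measured 20.2 and 19.2 CPM in Tail WT and 10.3 and 11.4 CPM in Tail DKO, -0.86 (SE 0.43, DESeq2 adjusted p = 0.00894). Both lay below every other Tail library, the lowest of which had 5.26 CPM of Hoxc12 and 19.1 CPM of Hoxc11. Hoxd13, of distal limb and cloaca, did not follow, with 49.2 and 37.9 CPM in Tail WT and 37.9 and 52.7 CPM in Tail DKO. Caudal body markers, among which 6 are Hox10 and Hox11 genes, had 7 of 10 lower without overlap, against 21.1% of all genes. The posterior limit of the dissection in each library is not given, and its part in these values was not tested.

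In the somites, dermomyotome and skeletal muscle genes had a negative log2 fold change in 30 of 30 members, against 49.1% of all genes (50.7% were positive), and a median of -0.80. At an unadjusted p under 0.05, 6 were lower, against 4.62% of all genes. Without overlap 18 were lower, against 21.1% of all genes. None of the 30 was called. Myh3, an embryonic myosin heavy chain, measured 26.7 and 84.9 CPM in Tail WT and 20.9 and 20.1 CPM in Tail DKO, -1.44 (SE 1.31, adjusted p = 0.862). Against Tail Gpr161 KO, 4 of the 30 were called higher and 0 lower, against 0.146% and 0.384% of all genes. They were Pax3, Pax7, Dmrt2 (2.92, SE 0.41, adjusted p = 0.00812) and Cdh15 (3.81, SE 0.67, adjusted p = 0.0287). Of these, Dmrt2 and Cdh15 were called in 0 of 4 fits with a library left out. Sclerotome and cartilage genes had 0 of 22 called and a median of -0.36. Pax1, induced in sclerotome by Hedgehog, overlapped at 14.1 and 26.6 CPM in Tail WT and 21.5 and 10.9 CPM in Tail DKO. Pax9 stood at 6.08 and 8.78 CPM in Tail WT and 4.94 and 4.82 CPM in Tail DKO, -0.61 (SE 0.29, adjusted p = 0.699), and Nkx3-2 at -0.65 (SE 0.45, adjusted p = 0.811). Col2a1, the collagen of cartilage and notochord sheath, measured 191 and 216 CPM in Tail WT and 145 and 111 CPM in Tail DKO, -0.67 (SE 0.19, adjusted p = 0.386). It was lower than in Tail Gpr161 KO, by -1.01 (SE 0.19, adjusted p = 0.0385), as were Foxc1 (-0.98, adjusted p = 0.0379) and Matn4 (-3.91, adjusted p = 0.00915).

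Hindlimb genes had a median near WT, at -0.13, with 0 of 35 called by edgeR. At an unadjusted p under 0.05, 3 were lower and 1 higher, against 4.62% and 2.51% of all genes. Without overlap 12 were lower and 6 higher, against 21.1% of all genes each way. DESeq2 called 1 member lower, Fgf8. Pitx1, which specifies hindlimb, measured 158 and 93.0 CPM in Tail WT and 100 and 148 CPM in Tail DKO. Tbx4 measured 46.4 and 31.2 CPM in Tail WT and 42.1 and 55.0 CPM in Tail DKO. Both overlapped. Hand2, of posterior limb mesenchyme, stood at 0.60 (SE 0.37) and Grem1, which relays the Shh signal to the limb ectoderm, at -0.46 (SE 0.29), neither past the threshold. Gut endoderm had 0 of 21 called by edgeR and a median of -0.09. Krt8, a simple epithelial keratin, measured 98.1 and 72.8 CPM in Tail WT and 293 and 235 CPM in Tail DKO, a log2 fold change of 1.63 (SE 0.48, adjusted p = 0.463, DESeq2 adjusted p = 0.0157), and Tail Gpr161 KO 1 had 318 CPM. Nephric and coelomic genes had 0 of 19 called by edgeR and a median of -0.02. Gdnf, which induces the ureteric bud, measured 5.74 and 5.35 CPM in Tail WT and 2.36 and 2.58 CPM in Tail DKO, -1.17 (SE 0.33, adjusted p = 0.386, DESeq2 adjusted p = 0.0402), and was lower than in Tail Gpr161 KO by -1.75 (SE 0.33, adjusted p = 0.0377). Surface ectoderm genes had 0 of 16 called and a median of 0.10, and Grhl3, needed for neural tube closure, stood at 0.43 (SE 0.45, adjusted p = 0.885).

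FGF response genes leaned lower in Tail DKO. Of 14 FGF response genes 6 were lower and 0 higher at an unadjusted p under 0.05, against 4.62% and 2.51% of all genes. Without overlap 8 were lower, against 21.1%, and the median was -0.26. Spry2, a feedback inhibitor, measured 25.5 and 23.9 CPM in Tail WT and 17.6 and 16.5 CPM in Tail DKO, -0.54 (SE 0.19, adjusted p = 0.57). DESeq2 called 1 of the 14, Fgfr1, a receptor chosen after its values were seen, with 160 and 159 CPM in Tail WT and 122 and 102 CPM in Tail DKO. Of 18 Wnt feedback genes 3 were lower at an unadjusted p under 0.05, against 4.62% of all genes. Without overlap 4 were lower, which is near the 21.1% of all genes. Nkd2 had 50.4 and 47.2 CPM in Tail WT and 27.4 and 30.2 CPM in Tail DKO, -0.76 (SE 0.22, adjusted p = 0.386). DESeq2 called 1 of the 18, the secreted Wnt inhibitor Wif1, chosen after its values were seen, at -1.20 (SE 0.32, adjusted p = 0.367, DESeq2 adjusted p = 0.0453). The BMP response list had a median of 0.18 with 2 higher and 1 lower at an unadjusted p under 0.05, against 2.51% and 4.62% of all genes. DESeq2 called Bambi, a decoy receptor chosen after its values were seen, with 55.5 and 45.9 CPM in Tail WT and 78.6 and 88.8 CPM in Tail DKO. Retinoic acid genes had 0 of 16 at an unadjusted p under 0.05, and Cyp26b1, which degrades retinoic acid, overlapped at 23.0 and 18.7 CPM in Tail WT and 21.5 and 8.99 CPM in Tail DKO. edgeR called 0 members of these 4 lists.

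Planar cell polarity genes had 1 of 25 called, Celsr1, and a median of -0.14. At an unadjusted p under 0.05, 8 were lower and 0 higher, against 4.62% and 2.51% of all genes. Vangl2, a core component needed for neural tube closure, measured 96.1 and 122 CPM in Tail WT and 89.3 and 72.9 CPM in Tail DKO, and Scrib 163 and 155 CPM in Tail WT and 113 and 113 CPM in Tail DKO. Neither overlapped, and neither was called, at -0.43 (SE 0.15, adjusted p = 0.564) and -0.49 (SE 0.13, adjusted p = 0.367). Both genes were chosen after their values were seen. Intu and Wdpcp, which work in a complex with Fuz, stood at 0.03 (SE 0.14) and 0.14 (SE 0.22). Cilium assembly genes were at the level of WT as a list, with 0 of 40 called and a median of 0.05. At an unadjusted p under 0.05, 2 were lower and 0 higher, against 4.62% and 2.51% of all genes. Without overlap 6 were lower and 8 higher, against 21.1% of all genes each way. Wdr19, a component of the retrograde transport particle, had the largest difference, at 18.9 and 20.0 CPM in Tail WT and 31.3 and 21.0 CPM in Tail DKO, 0.43 (SE 0.27, adjusted p = 0.789).

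**Figure D4:**
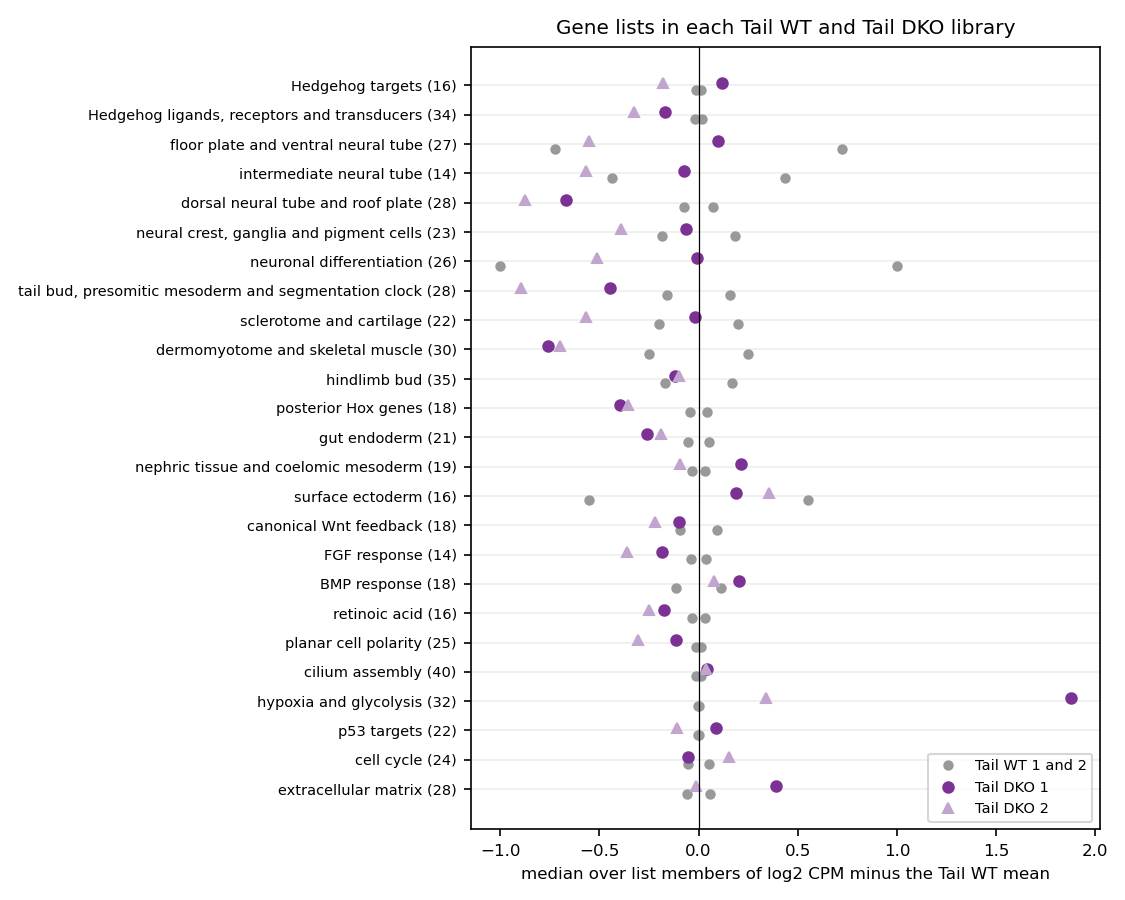
Median over the members of each of 25 gene lists (number of genes tested in brackets) of the difference in log2 CPM from the Tail WT mean, for each Tail WT library (grey) and for Tail DKO 1 (dark circles) and Tail DKO 2 (light triangles). Dorsal neural tube, dermomyotome and tail bud lists lie low in both DKO libraries, and the hypoxia list stands at 1.88 in DKO 1 and 0.34 in DKO 2.

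Hypoxia and glycolysis genes were higher in Tail DKO, mainly through 1 library. Cells short of oxygen stabilise HIF factors, which bind the motif ACGTG near genes of glucose uptake, glycolysis, collagen hydroxylation and angiogenesis. All 32 list members had a positive log2 fold change, against 50.7% of all genes, and 29 were higher without overlap, against 21.1%. The median was 1.33, but 0 of the 32 had an unadjusted p under 0.05. Adm, a vasodilator peptide, measured 0.670 and 0.640 CPM in Tail WT, 19.01 CPM in Tail DKO 1 and 0.705 CPM in Tail DKO 2. Vegfa, the endothelial growth factor, measured 50.9 and 63.6 CPM in Tail WT, 213 CPM in Tail DKO 1 and 67.5 CPM in Tail DKO 2. The list's median stood at 1.88 in DKO 1, 0.34 in DKO 2, 2.38 in Tail Fuz KO 1, 0.13 in Tail Fuz KO 2, and 1.23 and 0.43 in Tail Gpr161 KO. It thus varied within every mutant group, and its part in the other differences was not tested beyond leaving libraries out.

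The promoters of these genes are shown because the members moved together in the libraries. From RefSeq's GRCm38.p6 table, 28 of the 32 had the 250 bases before a start site, and 18 of the 28 (64.3%) held ACGTG on either strand, against 18.5% of all genes in the table and 16.6% of all its promoters. The 3 with the highest ratio of DKO 1 to WT among those whose window overlaps no annotated exon were P4ha2, P4ha1 and Egln3. P4ha1 and P4ha2 encode subunits of the enzyme that hydroxylates collagen, and Egln3 a sensor of oxygen that marks HIF for degradation. P4ha2 had 32.2 and 29.2 CPM in Tail WT, 173 in DKO 1 and 57.1 in DKO 2. For P4ha1 the levels were 88.8 and 93.1 CPM in Tail WT, 328 in DKO 1 and 142 in DKO 2. Egln3 had 14.0 and 16.0 CPM in Tail WT, 50.2 in DKO 1 and 9.99 in DKO 2, so that only DKO 1 lay above WT. The windows, at chr11:54100674-54100923 on the plus strand for P4ha2, chr10:59323046-59323295 on the plus strand for P4ha1 and chr12:54203875-54204124 on the minus strand for Egln3, are given in the direction of transcription with the motif, or its reverse complement CACGT, in capitals.
P4ha2: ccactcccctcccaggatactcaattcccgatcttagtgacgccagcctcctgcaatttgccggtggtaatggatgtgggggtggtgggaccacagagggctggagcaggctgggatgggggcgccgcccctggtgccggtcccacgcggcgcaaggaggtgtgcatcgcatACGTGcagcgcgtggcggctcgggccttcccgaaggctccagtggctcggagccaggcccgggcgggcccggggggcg
P4ha1: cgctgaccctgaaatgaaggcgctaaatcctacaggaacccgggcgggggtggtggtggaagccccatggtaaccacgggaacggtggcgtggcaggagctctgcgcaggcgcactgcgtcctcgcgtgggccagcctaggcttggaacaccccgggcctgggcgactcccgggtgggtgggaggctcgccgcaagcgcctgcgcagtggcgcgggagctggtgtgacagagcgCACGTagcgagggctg
Egln3: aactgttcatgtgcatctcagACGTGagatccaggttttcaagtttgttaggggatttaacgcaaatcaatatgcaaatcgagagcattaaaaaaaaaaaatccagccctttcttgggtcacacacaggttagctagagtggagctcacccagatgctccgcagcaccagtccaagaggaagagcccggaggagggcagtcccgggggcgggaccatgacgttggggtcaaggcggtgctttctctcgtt
Each holds a single match, which is a description and no site. The Gli motif GACCACCCA was in 0 of the 8 Hedgehog targets that had an entry and in 0.225% of all promoters, which says only that these letters are not in those windows.

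**Figure D5:**
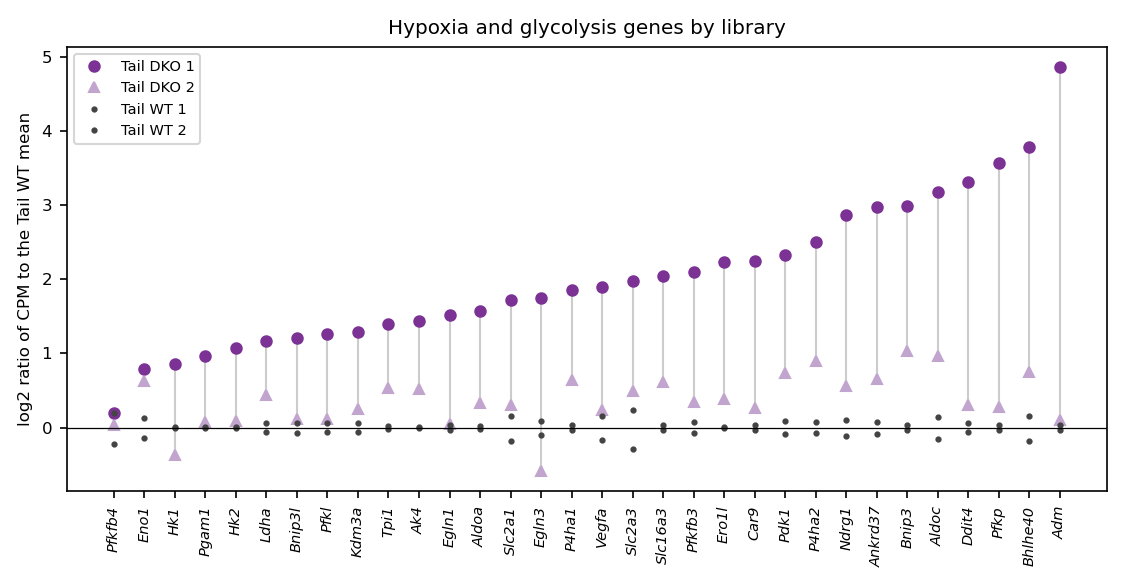
Log2 ratio of CPM to the mean of the 2 Tail WT libraries for the 32 hypoxia and glycolysis genes, ordered by Tail DKO 1 (dark circles), with Tail DKO 2 (light triangles) and the WT libraries (small dots). Adm stands at 19.01 CPM in DKO 1 against 0.705 CPM in DKO 2.

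With both DKO 1 and both Fuz KO 1 libraries left out, a choice made after the data were seen, edgeR called 34 genes higher and 196 lower in Tail DKO, which kept all 9 calls and shared 55 with the 135 of DESeq2. Tail DKO was then a single library, assumed to vary like the other groups. In that fit Pax3 was called at -0.70 (adjusted p = 0.0303), Pax7 at -1.29 (adjusted p = 0.0479), Col2a1 at -0.88 (adjusted p = 0.0209) and Fuz at -1.79 (adjusted p = 0.0319). Without Tail DKO 1 alone, 1 gene was higher and 5 lower.

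Extracellular matrix genes had 6 of 28 higher and 1 lower at an unadjusted p under 0.05, against 2.51% and 4.62% of all genes. Without overlap 12 were higher, against 21.1%. The list's median was 0.19, with 0 called by edgeR. DESeq2 called Postn, periostin of mesenchyme, chosen after its values were seen, at 142 and 138 CPM in Tail WT and 444 and 595 CPM in Tail DKO (log2 fold change 1.90, SE 0.51, adjusted p = 0.386 by edgeR and 0.00349 by DESeq2). Lum, a small proteoglycan, measured 26.0 and 27.8 CPM in Tail WT and 107 and 145 CPM in Tail DKO, 2.23 (SE 0.73, adjusted p = 0.549). In Tail Gpr161 KO, library 1 stood near DKO and library 2 near WT, with Postn at 379 and 151 CPM and Lum at 115 and 32.6 CPM. Fbn2, fibrillin of embryonic microfibrils, was lower than in Tail Gpr161 KO by -1.04 (SE 0.12, adjusted p = 0.00133, called in 4 of 4 fits with a library left out). p53 targets had a median of -0.001 and cell cycle genes one of 0.04, with 0 called by edgeR. Among p53 targets Fas had 1.94 and 2.38 CPM in Tail WT and 4.69 and 6.38 CPM in Tail DKO, 1.36 (SE 0.57, adjusted p = 0.647), and DESeq2 called Ccng1. The mitotic kinase Plk1 stood at -0.26 (SE 0.16, adjusted p = 0.779).

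Among the genes called by DESeq2 alone, 3 came close in edgeR, with adjusted p = 0.0672 each. They were chosen after their values were seen. Cacna1g, a T-type calcium channel, measured 26.0 and 22.0 CPM in Tail WT and 9.08 and 10.6 CPM in Tail DKO, -1.28 (SE 0.21). Rem2, a small GTPase that inhibits calcium channels, measured 7.16 and 8.87 CPM in Tail WT and 3.65 and 3.21 CPM in Tail DKO, -1.22 (SE 0.20). Auts2, a neuronal chromatin regulator, measured 79.1 and 77.7 CPM in Tail WT and 46.2 and 52.1 CPM in Tail DKO, -0.67 (SE 0.11). For all 3, both DKO libraries lay below every other Tail library. Wdr6, also chosen after its values were seen, had 147 and 227 CPM in Tail WT and 24.2 and 23.0 CPM in Tail DKO (-2.99, SE 0.63, adjusted p = 0.302, DESeq2 adjusted p = 0.000366). It was as low in Head DKO, at 29.2 and 30.3 CPM, and stood at 47.0 and 119 CPM in Tail Fuz KO.

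Against Tail Fuz KO as a whole, Tail DKO had 0 genes higher and 7 lower (0.0341%), and DESeq2 called 25 (0.122%), of which 4 were higher (0.0195%) and 21 lower (0.102%). At an unadjusted p under 0.05, 316 genes were higher (1.54%) and 432 lower (2.1%), 3.64% in all. Apart from Gpr161 (-3.62, SE 0.38, adjusted p = 0.00229) and Celsr1, the 7 were Rpl34-ps1, Atp6v0c-ps2 and, chosen after their values were seen, Gm9825, Gm6969 and H2-Bl. Against Tail Gpr161 KO the count was 30 higher and 79 lower, 0.53% in all, and DESeq2 called 197 higher (0.958%) and 483 lower (2.35%), 3.31% in all. At an unadjusted p under 0.05, 5.09% of genes were higher and 7.13% lower, 12.2% in all. It depended on single libraries, with 25 called without Gpr161 KO 1, 19 without Gpr161 KO 2, 17 without DKO 1 and 13 without DKO 2. Gpr161 KO 1 lacked Xist and Gpr161 KO 2 had 977 CPM, and with sex as a term 47 genes were called. That term is set by the difference between library 1 and library 2 of Gpr161 KO in Head and Tail, whatever its source. Among genes lower in Tail DKO were Slit1, an axon repellent of the floor plate, at -2.84 (adjusted p = 0.0296) and Saa2, a serum amyloid, at -3.61 (adjusted p = 0.0218). With a library left out, Slit1, Saa2, Fuz, Col2a1, Foxc1, Gdnf and Evx1 were called in 0 of 4 fits, Shh and Matn4 in 1 and Ferd3l in 2.

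Whether the effect of the double knockout differed between Tail and Head depended on the pairing of libraries. Without pairs, a test of that difference called 0 autosomal genes by edgeR, 675 had an unadjusted p under 0.05 (3.28%; 1.65% higher and 1.63% lower), and DESeq2 called 11 (0.0535%), 6 higher (0.0292%) and 5 lower (0.0243%). Same-numbered Head and Tail libraries of a genotype deviated together, but so did those of some different genotypes, so the pairing is an assumption. With them as pairs, a fit chosen after the data were seen, edgeR called 18 genes (0.0876%), 4 higher (0.0195%) and 14 lower (0.0681%). Celsr1 was among the 18. It measured 63.3 and 66.9 CPM in Head WT and 81.8 and 77.8 CPM in Head DKO, on the other side of WT from the Tail, and the difference of the effects was -1.28 without pairs (SE 0.21, adjusted p = 0.409) and -1.28 with pairs (SE 0.14, adjusted p = 0.00557). Shh measured 27.1 and 31.5 CPM in Head WT and 6.93 and 7.53 CPM in Head DKO, a difference of 0.75 (SE 0.44, adjusted p = 1, and 0.524 with pairs). Gli1 stood at 36.4 and 43.7 CPM in Head WT and 24.9 and 20.3 CPM in Head DKO, where the groups did not overlap, and the Tail effect differed from it by 0.67 (SE 0.26, adjusted p = 1, and 0.0944 with pairs).

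Markers of cells that the Tail could hold besides its own tissues had 0 members called by edgeR or DESeq2. Erythroid markers summed to 7905 and 4519 CPM in Tail WT and 9004 and 9114 CPM in Tail DKO. Of these, 8 of 16 were higher without overlap, against 21.1% of all genes. Hbb-bt, an adult globin, had 15.6 and 10.2 CPM in Tail WT and 3.00 and 11.6 CPM in Tail DKO. Endothelial markers summed to between 720 and 891 CPM in the 4 libraries, macrophage markers to between 22.2 and 46.4 CPM, and cardiomyocyte markers to 34.4 and 64.6 CPM in Tail WT and 26.7 and 30.6 CPM in Tail DKO. Flt1, a VEGF receptor, was at 74.5 CPM in DKO 1 against 27.5 to 33.0 CPM in the other 3 libraries. Csf1r, of macrophages, stood at -0.65 (SE 0.91) and Tnnc1, of heart and slow muscle, at -1.36 (SE 0.99). Liver and yolk sac markers summed to between 23.0 and 28.3 CPM, with Afp at 2.202 and 1.92 CPM in Tail WT and 10.3 and 3.37 CPM in Tail DKO and Fga at 0 in 3 of the 4 libraries. Trophoblast markers summed to between 13.0 and 30.6 CPM, nearly all of it Krt7, which epithelia also make. The part of these cells in the other results was not tested.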

How the data were processed

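Per the labels' protocols, a Trizol-based kit with DNase gave the RNA, and poly-A selected libraries were made with NEBNext Ultra RNA. The deposited values are raw read counts per gene and library, not normalized. Among the tools in the submitters' processing notes are STAR 2.7.1a, featureCounts 1.6.0 and HTSeq, with GRCm39 as the build. No source used here says which tool counted the reads or whether it used strand. Reads of overlapping genes and near-identical copies may be shared. Of 54838 gene identifiers 54809 matched a GENCODE annotation of GRCm38, used for names, chromosomes and exons only.

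All 16 libraries were fitted together in edgeR 4.0.16 (R 4.3.3) with TMM scaling, filterByExpr, a mean per group and robust quasi-likelihood tests (8 residual degrees of freedom), adjusted by Benjamini-Hochberg over all genes tested, with contrasts between groups. The common biological coefficient of variation was 0.257. DESeq2 1.42.0, no filter, a filter of 5 CPM, a fit of the compared groups alone, sex as a term, a replicate block and each library left out were alternatives. The sex term is set by the Gpr161 KO libraries alone, since the libraries of every other group are alike in Xist. Same-numbered Head and Tail libraries of a genotype deviated together, with r of 0.131 (WT), 0.281 (DKO), 0.153 (Gpr161 KO) and 0.436 (Fuz KO). Some libraries of different genotypes reached like values, such as 0.301 for Head Fuz KO with Head DKO and 0.269 for Head DKO with Tail Fuz KO. Others did not, such as -0.0809 for Head WT with Head DKO. The pairing is therefore an assumption. A fit with Head and Tail of a genotype as pairs (4 residual degrees of freedom) was added for Tail against Head. The fit of all libraries treats them as independent. A fold change is of a level, in CPM, between groups. The test was checked on simulated counts of 20506 genes. Members and lists were chosen with earlier results of these data known. Named are a fixed set of pathway genes, the called genes with the largest change in each comparison (at least 5 CPM in the higher group, no overlap, no unnamed gene models), up to 4 called members of each list, and otherwise its member with the largest change among those of at least 5 CPM. Apart from Xist, genes on the sex chromosomes are not reported. Some genes that the rule names are not reported here.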

Additional observations from a re-analysis of the deposited data

Results flagged for a closer look

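With Head and Tail libraries of a genotype as pairs, the effect of the double knockout differed between Tail and Head for 3 of the named genes. The pairing is an assumption, chosen after the data were seen, and without it none of the 3 passed (edgeR adjusted p from 0.409 to 1). Celsr1 had a Tail minus Head difference of -1.28 on the log2 scale (SE 0.14, edgeR adjusted p = 0.00557). Foxl1, a factor of gut and facial mesenchyme, differed by 2.96 (SE 0.33, adjusted p = 0.00557), with 7.87 and 5.58 CPM in Head WT, 0.754 and 0.568 CPM in Head DKO, 3.30 and 3.66 CPM in Tail WT and 3.58 and 1.96 CPM in Tail DKO. The groups overlapped in the Tail and not in the Head. Spry2, the FGF feedback inhibitor, differed by -1.11 (SE 0.16, adjusted p = 0.0175), with 24.4 and 22.7 CPM in Head WT, 39.7 and 31.1 CPM in Head DKO, 25.5 and 23.9 CPM in Tail WT and 17.6 and 16.5 CPM in Tail DKO. Its DKO libraries lay above WT in the Head and below WT in the Tail.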

How the results depend on the processing

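With 2 libraries a group, counts of calls moved with the processing, and depth was not varied. Against the 2 genes higher and 7 lower in Tail DKO than in Tail WT, no filter gave 220 and 237, the 5 CPM filter 1 higher, sex as a term 1 higher, the groups compared alone 9 and 14, DESeq2 34 and 101, and leaving out both DKO 1 and both Fuz KO 1 libraries (chosen after the data were seen) 34 and 196. Leaving out 1 library gave 1 to 1 higher and 4 to 5 lower. Against Tail Fuz KO (7 calls) there were 145 with no filter, 25 with DESeq2, 2 with the groups compared alone and 4 to 9 with a library left out. Against Tail Gpr161 KO (109 calls) there were 761 with no filter, 47 with sex, 680 with DESeq2, 371 with the groups compared alone, 1919 without DKO 1 and Fuz KO 1, and 13 to 25 with a library left out. For Tail against Head (0 calls) there were 141 with no filter, 11 with DESeq2, 4 with the groups alone, 2 without DKO 1 and Fuz KO 1, and 0 to 0 with a library left out. The cause was not tested.

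Same-numbered libraries did not deviate together between Tail WT and Tail DKO (r = -0.05), but did between Tail Fuz KO and Tail DKO (r = 0.24). The numbers are not treated as a pairing of genotypes. A replicate block gave 5 higher and 13 lower against WT, 224 calls against Tail Gpr161 KO, and Olig2 at 0.088. Pairing Head with Tail within a genotype gave 18 calls for Tail against Head in place of 0.

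Genes whose sign turned had not passed the test. With sex as a term these were Gli1 at 0.012, Foxf1 at 0.49, Foxf2 at 0.32, Foxl1 at 0.54, Pax1 at 0.088, Nkx3-2 at 0.30, Lhx9 at 0.63, Hand1 at -0.11, Hoxc13 at 0.48 and Csf1r at 1.35. Differences between Gpr161 KO libraries 1 and 2 set that term. In the Tail these libraries also differed in their hypoxia genes, with list medians of 1.23 and 0.43. Without both DKO 1 and both Fuz KO 1, Ptch1 stood at -0.11 and Pitx1 at 0.23. With 1 library left out the log2 fold changes ran from -0.099 to 0.34 for Ptch1, -0.83 to 0.042 for Foxl1, -3.69 to 0.35 for Nkx2-2, -1.58 to 0.99 for Nkx6-1, -0.91 to 2.32 for Olig2, -0.13 to 1.14 for Pax6, -0.90 to 0.20 for Pax1, -0.35 to 0.43 for Pitx1, -0.20 to 0.27 for Hoxd13, -1.21 to 0.045 for Cyp26b1 and -0.064 to 1.21 for Krt7.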
